A study of Homo sapiens with 24 samples.

Results

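The data described here are the 4 libraries labelled Hep3b in a series of 24 RNA-seq libraries from 6 liver cancer cell lines. They were chosen by the line name in the sample titles, and the other 20 libraries, from Huh1, Huh7, HepG2, HLE and SK-HEP1, served for comparison. Cells had received a control siRNA (siCTL) or an siRNA against SFPQ (siSFPQ), each without TGF-beta or with TGF-beta at 2 ng per ml for 24 h, which gives 1 library per line and condition. In Hep3b the effect of the knockdown was therefore read in 2 pairs, without TGF-beta (the untreated pair) and with it (the treated pair), and the effect of TGF-beta in 2 pairs, under siCTL and under siSFPQ. Nothing in the labels says that the pairs came from separate cultures. The p-values within Hep3b measure a change against how far the 2 pairs of a line differ, taken over the 6 lines. They do not measure a spread between cultures. The labels do not state the siRNA sequence, the number of siRNAs or the time between transfection and harvest.

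SFPQ is a nuclear RNA- and DNA-binding protein of the DBHS family, whose other members are NONO and PSPC1. These proteins build paraspeckles on the long noncoding RNA NEAT1 and take part in transcription, splicing and DNA repair. TGF-beta signals through a pair of receptor kinases that phosphorylate SMAD2 and SMAD3, which join SMAD4 and switch target genes on or off. In epithelial cells the pathway is known both for arresting the cell cycle and for inducing matrix and mesenchymal genes. The title of the series places SMAD4 in SFPQ condensates, and the comparisons below ask what the loss of SFPQ and the addition of TGF-beta did to the transcripts of the cells labelled Hep3b.

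The label was checked against genes known for the line, and the RNA went against it. Hep3b is a hepatocellular carcinoma line known to make alpha-fetoprotein and albumin. AFP, the gene of alpha-fetoprotein, ranged from 7.89 to 13.3 FPKM (fragments mapped to a transcript, scaled to its length and to the size of the library), against 7857 to 13083 in Huh7 and 124 to 196 in HepG2. ALB, the gene of albumin, ranged from 0.514 to 0.951 FPKM, against 259 to 701 in Huh1. HNF4A, a master regulator of hepatocyte genes, stayed between 0.368 and 0.79 FPKM, where Huh1, Huh7 and HepG2 lay between 44.3 and 187. The epithelial adhesion genes CDH1 and EPCAM reached at most 0.114 and 0.13 FPKM. Other epithelial genes were present: of 28 on the list, 19 reached 1 FPKM in each Hep3b library. Their summed level was 1956 to 2593 FPKM, against 2012 to 4101 in HLE and SK-HEP1 and 2847 to 6995 in Huh1, Huh7 and HepG2.

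Of 40 hepatocyte genes on the marker list, 10 to 13 reached 1 FPKM in a Hep3b library. Their summed level was 511 to 742 FPKM, between that of SK-HEP1 and HLE (38.5 to 241) and that of Huh1, Huh7 and HepG2 (2627 to 25889). Most of the Hep3b sum was CPS1, the first enzyme of the urea cycle, at 688 FPKM under siCTL, 502 with TGF-beta, 689 under siSFPQ and 465 with both. The genes that set these libraries furthest apart from the other 20 were H19, PRSS56, ALPI, COL15A1, ALPP, PRSS21, CPS1 and IFITM1 on the high side. H19, an imprinted fetal noncoding RNA, was read at 857 to 1138 FPKM against at most 5.23 elsewhere. ALPI and ALPP, alkaline phosphatases of intestine and placenta that are related gene copies, were read at 555 to 972 and 108 to 227 FPKM. How reads were divided between those copies is uncertain. On the low side stood NID1, PLIN2, TMEM98, HMGA2, FBXO17, TUBB2B, STK11 and IL8. STK11, a tumour suppressor kinase, was read at 0.999 to 1.57 FPKM against at least 16.2 in every other library.

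In all, 223 genes were at least 2-fold above and 69 at least 2-fold below every library of the other lines. The 4 libraries correlated with each other at 0.984 to 0.996 (Pearson, across 14356 genes, which are not independent replicates), with SK-HEP1 at 0.804 to 0.836, with HLE at 0.797 to 0.835, and with HepG2 at 0.708 to 0.733. Below, Hep3b stands for the libraries labelled so, and each direction drawn from them is that of these libraries. Endothelial and immune markers were low: 12 endothelial markers summed to 4.72 to 7.1 FPKM, and 15 immune markers to 18.4 to 23.2 FPKM. Of the immune markers 5 were at 0 in all 4 libraries, and the pan-leukocyte gene PTPRC reached at most 0.0175 FPKM. In a Hep3b library 2 to 3 of them reached 1 FPKM, and CD68, CSF1R and LYZ were the 3 that entered the tests. Of 14 stellate and fibroblast markers, 7 to 9 reached 1 FPKM in a Hep3b library, with a sum of 106 to 188 FPKM, of which COL3A1 made up the largest share; in the libraries of the other lines 1 to 6 did. Depth, estimated from the value worth 1 fragment, was 0.914 and 1.01 times that of the median library under siCTL and 1.40 and 1.75 times under siSFPQ. Depth therefore moved with the knockdown, and its part in the knockdown results was not tested.

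**Figure D1:**
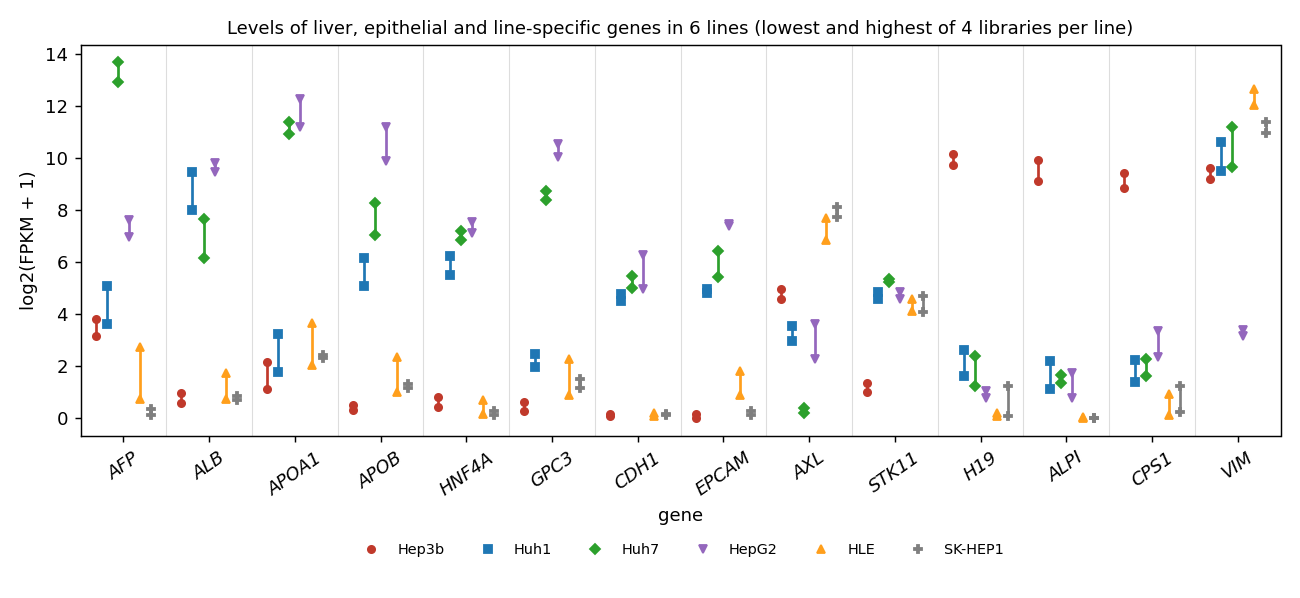
Level of 14 genes, as log2(FPKM + 1), in the 6 lines; the joined symbols are the lowest and the highest of the 4 libraries of a line. The libraries labelled Hep3b (red) held ALB, APOB and HNF4A far below Huh1, Huh7 and HepG2, and stood apart through H19, ALPI, CPS1 and a low STK11.

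The knockdown was present in both pairs. SFPQ was read at 167 FPKM under siCTL and 163 with TGF-beta, and at 40.5 FPKM under siSFPQ and 37.5 with TGF-beta. The groups did not overlap, and 24.2% and 22.9% of the RNA was kept. The change was -2.06 on the log2(FPKM + 1) scale (standard error 0.09, adjusted p = 3.85e-07, limma), which lay inside the range of the other lines, from -3.26 in HLE to -1.15 in HepG2. All changes below are on this scale, which understates the change of genes with low values. PSPC1 and NEAT1 rose with siSFPQ, and NONO did not pass the test. PSPC1 was read at 27.8 and 26.5 FPKM under siCTL and at 54.0 and 57.0 under siSFPQ, a rise of 1.01 (standard error 0.09, adjusted p = 2.24e-05), above the 0.02 to 0.58 of the other lines. NEAT1, the scaffold RNA of paraspeckles, was at 304 and 326 FPKM under siCTL and at 641 and 515 under siSFPQ, a rise of 0.86 (standard error 0.14, adjusted p = 0.00114). NONO differed by 0.15 (adjusted p = 0.105). Of the 23 paraspeckle genes on the list, 8 rose and 3 fell, where 10.5% of all genes tested rose and 20.1% fell. The untreated pair alone gave 6 higher and 0 lower, and the treated pair alone 1 and 2. RBM14 (0.47) and MATR3 (0.37) were among those that rose, and the RNA-binding proteins EWSR1 (-0.36) and TAF15 (-0.43) were among those that fell.

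Across the 11986 genes tested, 1262 were higher with siSFPQ (10.5%) and 2409 lower (20.1%) at an adjusted p under 0.05 in limma. Of these, 61 were at least 2-fold higher and 215 at least 2-fold lower. All 3671 had the same sign in both pairs, which the test favours, since a difference between the pairs adds to its error. The excess of falls depends on the scaling. With the untreated pair alone 3.85% of genes were higher and 9.54% lower, and with the treated pair alone 3.76% and 9.35%. With every library set to a common median ratio the counts were 1655 higher and 2049 lower, and with the trend on GC content removed they were 1679 and 1820.

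The furthest falls were those of genes with many kinds of function. MRC2, an endocytic collagen receptor, went from 73.6 and 78.9 FPKM to 9.65 and 13.2, a change of -2.65 (adjusted p = 6.41e-07). WIPF1, a partner of the actin regulator WASP, went from 16.7 and 19.7 FPKM to 1.10 and 3.87 (-2.58, adjusted p = 4.78e-05). FSTL4, a secreted follistatin-like protein, went from 22.1 and 33.4 FPKM to 3.91 and 5.83 (-2.28, adjusted p = 1.58e-07). In none of these genes did the siCTL and siSFPQ libraries overlap. Their choice as the furthest calls with the same sign in both pairs favours that. MRC2 and FSTL4 were close to absent in most other libraries, with medians of 0.391 and 0.0233 FPKM. The pseudogene P2RX6P (-2.63) was listed at 0 in every library of the other lines and in the siSFPQ library with TGF-beta, and its level cannot be told apart from that of related copies. C11orf49 (-2.18), the cell adhesion gene NEGR1 (-1.98), the chromatin gene CFDP1 (-1.97), the phosphate transporter SLC20A2 (-1.89), the potassium channel KCNQ1 (-1.88), the phospholipid methyltransferase PEMT (-1.83) and the methyltransferase SMYD3 (-1.81) followed. C11orf49 fell more than in any other line, where its change was -1.78 to -0.53. Of all genes 12.2% lay below the other 5 lines with the knockdown.

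The furthest rises began with CYR61, a matricellular protein and known target of both YAP and TGF-beta. It was read at 13.8 and 17.1 FPKM under siCTL and at 47.5 and 75.9 under siSFPQ, a rise of 1.90 (standard error 0.13, adjusted p = 4.64e-06). GANAB, the glucosidase that trims new glycoproteins in the endoplasmic reticulum, went from 66.1 and 65.0 FPKM to 200 and 191 (1.56, adjusted p = 2.43e-07), and its change in the other lines was 0.85 to 1.71. ETV4, an ETS transcription factor downstream of ERK signalling, went from 4.81 and 5.92 FPKM to 17.3 and 18 (1.56, adjusted p = 0.000221). No siSFPQ library overlapped an siCTL library in these genes, which were also chosen in a way that favours it. DUSP4 (1.41), an ERK phosphatase, and LATS2 (1.34), a kinase of the Hippo pathway, also rose, as did PSG4 (1.53), PKDCC (1.32), OLR1 (1.28), HABP4 (1.26), CPA4 (1.24), the glucose transporter SLC2A3 (1.23) and PODXL (1.22). ETV4 and DUSP4 rose by more than in each of the other 5 lines, whose ranges were 0.03 to 0.73 and 0.09 to 0.81. The test of that difference gave unadjusted p = 0.00192 and 0.00948, which did not pass adjustment. Of all genes 17.2% lay above the other 5 lines with the knockdown.

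**Figure D2:**
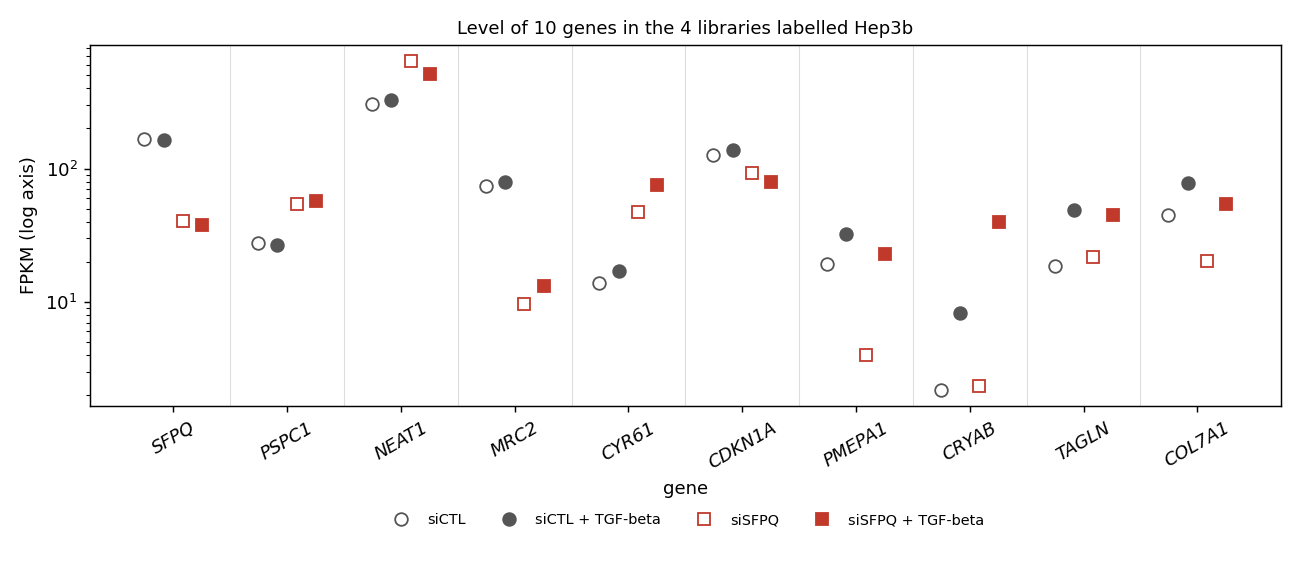
FPKM of 10 genes in the 4 libraries labelled Hep3b, on a log axis; circles are siCTL, squares siSFPQ, and filled symbols had TGF-beta. SFPQ and MRC2 fell and PSPC1, NEAT1 and CYR61 rose with siSFPQ in both pairs, while CRYAB, TAGLN and COL7A1 rose with TGF-beta under both siRNAs.

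Proliferation genes had a median change near 0 in Hep3b and below 0 in each of the other lines. With siSFPQ the median change of the 37 genes of G2 phase and mitosis was 0.02 in Hep3b, and -0.70 in Huh1, -0.74 in Huh7, -0.45 in HepG2, -1.78 in HLE and -1.01 in SK-HEP1. The median of all genes tested was -0.05 in Hep3b and -0.13 to -0.04 elsewhere. Of all genes tested in Hep3b 10.5% rose and 20.1% fell. In Hep3b 4 of the 37 rose and 5 fell (1 and 4 in the untreated pair alone, 0 and 4 in the treated pair alone), and 35 of the 37 changes lay above those of all 5 other lines, against 17.2% of all genes. MKI67, the gene of the proliferation antigen Ki-67, was read at 48.6 and 46.0 FPKM under siCTL and at 51.0 and 55.2 under siSFPQ. Its change of 0.16 did not pass the test (adjusted p = 0.113), and in the other lines it was -2.28 to -0.68. CCNB1, the mitotic cyclin, was at 91.3 and 102 FPKM under siCTL and at 108 and 104 under siSFPQ, a difference of 0.14 (adjusted p = 0.353) against -1.57 to -0.47. PLK1, a mitotic kinase, was at 89.7 and 106 FPKM, then 105 and 110, a difference of 0.13 (adjusted p = 0.392) against -1.69 to -0.39. The siCTL and siSFPQ libraries overlapped for PLK1 and lay side by side, without overlap, for CCNB1.

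The members that moved did so in both directions. CDC25B, a phosphatase that activates CDK1, rose by 0.55, and CDC20, KIF2C and KIF23, genes of chromosome segregation and cytokinesis, rose by 0.32, 0.34 and 0.28. STMN1, a microtubule-destabilising protein, fell by 1.32, from 165 and 168 FPKM to 68.8 and 63.2, within the range of the other lines. HMMR, TPX2, TOP2A and ANLN fell by 0.63, 0.52, 0.49 and 0.31. The difference between Hep3b and the other lines was also tested gene by gene on 1 value per line. Of 10950 genes, 0 passed (0.0%, limma), and 241 had an unadjusted p under 0.05. Among the 37 G2/M genes, 12 had such an unadjusted p, AURKA (0.0167) and CDC20 (0.0104) among them.

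For replication and repair genes, too, Hep3b had the highest median of the 6 lines. For 42 genes of G1/S and DNA replication the median was -0.06 in Hep3b and -1.45 to -0.39 in the other lines. In Hep3b 3 of them rose and 9 fell, a share of falls near the 20.1% of all genes, and 32 lay above all other lines. With either pair alone 3 fell, and 1 or 2 rose. POLE, the leading-strand polymerase, rose by 0.45 and ORC6, of the origin recognition complex, by 0.43. CCND1, cyclin D1, fell by 0.88 and POLA1, of the priming polymerase, by 0.76. For 36 genes of homologous recombination and the Fanconi pathway the medians were -0.04 and -1.05 to -0.28, with 1 gene up, 6 down (4 in the untreated and 3 in the treated pair alone) and 20 above all other lines. FANCC (-0.92), FANCL (-0.88), RAD51B (-0.74) and FANCD2 (-0.54) fell, and of all genes 10.5% rose and 20.1% fell. BLM, a helicase of recombination repair, was read at 5.75 and 6.22 FPKM under siCTL and at 7.37 and 8.57 under siSFPQ. It rose by 0.36 (adjusted p = 0.0089), where it changed by -1.22 to -0.23 elsewhere. Over the single Hep3b libraries left out, the G2/M median lay between -0.06 and 0.07.

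**Figure D3:**
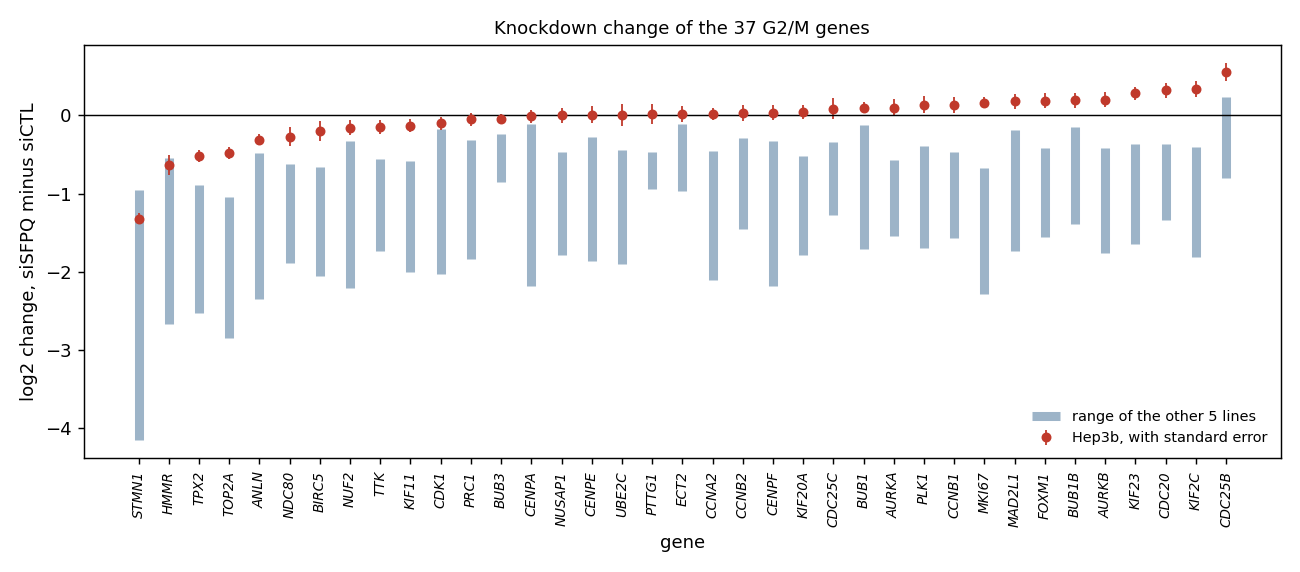
Change of each of the 37 G2/M genes with siSFPQ, as log2(siSFPQ) minus log2(siCTL) of FPKM + 1. Red points with standard errors are Hep3b and bars span the lowest to the highest of the other 5 lines; 35 of the 37 points lie above their bar.

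CDKN1A moved against the direction of the other lines. This gene, which encodes the CDK inhibitor p21, was read at 127 and 137 FPKM under siCTL and at 93.2 and 79.8 under siSFPQ. The groups did not overlap, and the fall of 0.61 (adjusted p = 0.00103) stood against changes of 0.14 to 0.62 in the other lines (unadjusted p of the difference 0.00299, not passing adjustment). RRM2B (-1.18), a ribonucleotide reductase subunit, FDXR (-0.92), a mitochondrial reductase, and DDB2 (-0.57), a DNA damage sensor, also fell, while TNFRSF10B, a death receptor, rose by 0.67. CDKN1A and these genes are on a list of 26 measured p53 targets, of which 2 rose and 4 fell. Of all genes 10.5% rose and 20.1% fell, and the median change of the p53 targets was 0.11. That median differed in sign between the pairs. It was 0.20 in the untreated pair, with 17 of 26 above 0, and -0.10 in the treated pair, with 10 above 0. Of 20 measured genes on the TGF-beta cytostatic list, 4 rose and 3 fell, against 10.5% and 20.1% of all genes. ID1 and ID3, inhibitors of differentiation factors, rose by 0.60 and 0.68, as did CDC25A, a phosphatase of cell cycle entry, by 0.34 and FOXO1, a forkhead factor, by 0.46. CDKN2C, a CDK inhibitor, fell by 0.48 and RBL2, a relative of the retinoblastoma protein, by 0.45, beside CDKN1A. The untreated pair alone gave 1 higher and 2 lower, and the treated pair alone 3 and 1.

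Interferon-stimulated genes fell. Of 30 measured, 13 were lower and 0 higher (limma; background 20.1% lower), with a median of -0.30 against -0.05 for all genes. OASL, an antiviral sensor relative, was read at 100 and 91.0 FPKM under siCTL and at 63.4 and 32.3 under siSFPQ (-1.06, adjusted p = 0.00231). IRF9, the DNA-binding part of the interferon-activated complex, went from 10.3 and 10.6 FPKM to 6.29 and 6.37 (-0.64, adjusted p = 0.000227). The siCTL and siSFPQ libraries did not overlap in either gene. ISG15 went from 380 and 383 FPKM to 348 and 209, so that most of its fall (-0.50, adjusted p = 0.0482) was in the treated pair. That held for the list: its median was -0.13 in the untreated pair and -0.42 in the treated one, and 4 members were lower in the untreated pair alone against 14 in the treated pair alone. In the other lines the interferon medians were -0.16 to 0.20 in the untreated pair and -0.30 to -0.01 in the treated one. Each of those lines, too, had the lower median in the treated pair. Of 17 inflammatory and NF-kB genes 7 rose and 0 fell (background 10.5% higher). The untreated pair alone gave 4 higher, and the treated pair alone 1. IL6 (0.66), ICAM1 (0.66), RELB (0.60) and NFKB2 (0.55) were among them, and the medians were 0.25 in Hep3b and 0.16 to 0.77 elsewhere.

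Genes of the TGF-beta pathway moved at several levels with the knockdown. Of 19 measured receptors and SMADs, 7 rose and 2 fell, against 10.5% and 20.1% of all genes, and either pair alone gave 3 higher and 1 lower. TGFBR2, the receptor that binds TGF-beta first, went from 18 and 17.1 FPKM to 35.7 and 38.0, a rise of 1.03 (adjusted p = 0.000104) against 0.24 to 0.76 elsewhere. TGFBR3 (betaglycan) rose by 1.02, ACVR1B by 0.57, TGFBR1, the signalling receptor, by 0.53 and SMAD3 by 0.26. BMPR2, a BMP receptor, fell by 1.24. SMAD4 was read at 6.56, 6.03, 6.47 and 6.32 FPKM in the order siCTL, siCTL with TGF-beta, siSFPQ and siSFPQ with TGF-beta, and its change of 0.02 did not pass the test (adjusted p = 0.892).

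The 30 measured TGF-beta target genes had a median change of -0.11 with siSFPQ in Hep3b, and of 0.19 to 0.42 in the other lines. The direction depended on the pair: the median was -0.32 without TGF-beta, with 10 of 30 above 0, and 0.13 with TGF-beta, with 20 above 0. In Hep3b 6 rose and 3 fell (2 and 4 in the untreated pair alone, 3 and 0 in the treated pair alone), and 11 of 30 lay below all other lines (12.2% of all genes did). PMEPA1, a SMAD-induced inhibitor of the pathway, fell by 1.25 (adjusted p = 0.0491) and LTBP1, which binds latent TGF-beta, by 0.55. Those that rose included CTGF (1.16), TSC22D1 (1.03) and NEDD9 (1.20) beside CYR61, and of all genes 10.5% rose and 20.1% fell.

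Matrix and stromal genes were split. Of 27 extracellular matrix genes 4 rose and 8 fell, against 10.5% and 20.1% of all genes. The untreated pair alone gave 2 higher and 7 lower, and the treated pair alone 3 and 1. THBS1 (0.97), LAMB1 (0.80) and LAMC1 (0.52) rose, and HSPG2 (-1.27), COL5A1 (-0.85), COL7A1 (-0.82) and COL3A1 (-0.55) fell. Of the 14 stellate and fibroblast markers 8 were tested, and 0 rose and 5 fell (with a pseudocount of 0.1, 1 fell). These 8 entered through their levels in Hep3b, and 2 of them reached the level set for the other lines, so the lines were not compared for this list. COL3A1, a fibrillar collagen, was read at 99.1 and 117 FPKM under siCTL and at 60.4 and 88.5 under siSFPQ, and DCN, decorin, at 14.5 and 14.8, then 9.64 and 9.0. The summed level of the 14 markers was 160 and 188 FPKM under siCTL and 106 and 153 under siSFPQ, and COL1A2, a defining fibroblast gene, was at most 0.0481 FPKM. Fewer cells of a type and less RNA per cell cannot be told apart in bulk libraries.

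Long genes fell with the knockdown. The 309 genes spanning at least 300 kb of the genome had a median change of -0.47 in Hep3b, with 183 lower (59.2%) and 13 higher. In the classes under 300 kb the medians were -0.07 to -0.02, and 15.9% to 28.4% were lower. Medians for the longest class in the other lines were -0.12 in Huh1 and HepG2, -0.29 in Huh7, -0.40 in SK-HEP1 and -0.76 in HLE. Within Hep3b the medians of that class were -0.52 in the untreated and -0.38 in the treated pair, and with TGF-beta the median was -0.01.

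**Figure D4:**
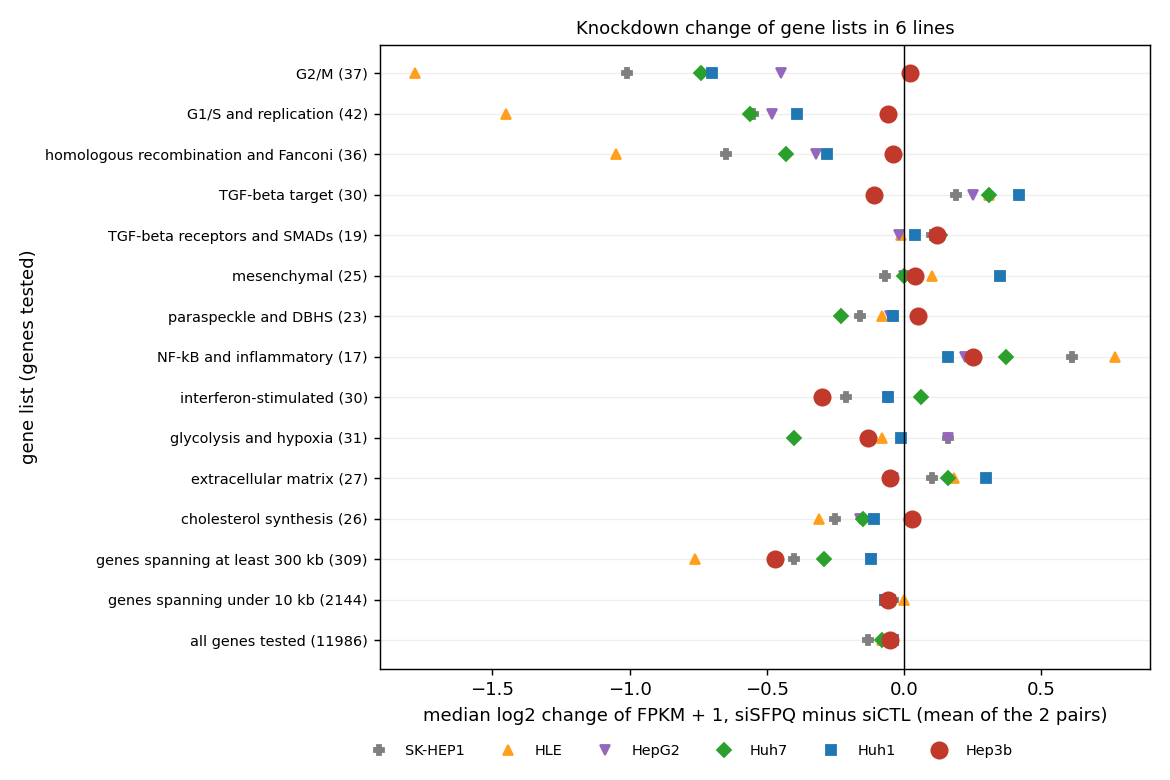
Median change with siSFPQ of 12 gene lists, of the longest and shortest genes and of all genes tested, in each line; the number of genes is in brackets. Hep3b (large red points) lies near 0 for the 3 proliferation and repair lists, where the other lines lie between -1.78 and -0.28, and with the other lines for long genes at -0.47.

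TGF-beta changed few genes in the libraries labelled Hep3b. In limma 51 genes were higher (0.425%) and 17 lower (0.142%) of 11986, and 1057 had an unadjusted p under 0.05. The spread of the change over genes (standard deviation 0.18) was below that of the other lines (0.21 to 0.36). Among the furthest rises were genes of the cytoskeleton, the matrix and epithelial cells. C5orf46, a small secreted protein, was read at 1.11 FPKM under siCTL and 7.37 with TGF-beta, and at 1.32 under siSFPQ and 10.3 with TGF-beta, a rise of 2.14 (standard error 0.17, adjusted p = 0.000792). CRYAB, a small heat-shock protein, went from 2.19 to 8.25 FPKM under siCTL and from 2.33 to 40.0 under siSFPQ (2.58, standard error 0.40, adjusted p = 0.032). TAGLN, the smooth-muscle protein transgelin, went from 18.7 to 48.7 FPKM and from 21.7 to 44.6 (1.17, adjusted p = 0.00656). Both treated libraries lay above both untreated ones in each of these genes, which their choice as furthest calls favours. COL7A1, the anchoring-fibril collagen, was read at 45.0 and 78.1 FPKM under siCTL and at 20.3 and 53.9 under siSFPQ. It rose by 1.08 (adjusted p = 0.0317), and each siSFPQ library stood below the siCTL library of the same treatment.

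MMP17 (1.33), a membrane-bound metalloprotease, the cardiac actin ACTC1 (1.32), the keratin KRT17 (1.17), the microfibril gene MFAP2 (1.11), BMP6 (1.04), the collagen COL5A1 (1.02), LYPD3 (0.95) and SLC12A8 (0.92) also rose. SLC12A8 and MFAP2 rose by more than in each other line, whose ranges were -0.21 to 0.15 and 0.13 to 0.85. Of all genes 19.7% lay above the other 5 lines with TGF-beta. CDKN2B, the gene of the CDK inhibitor p15 and a cytostatic target of TGF-beta, was at 7.93 FPKM under siCTL and 11.5 with TGF-beta, and at 6.26 under siSFPQ and 11.7 with TGF-beta. It rose by 0.64 (adjusted p = 0.032), and the other lines ranged from -0.03 to 1.73. For the list counts that follow, 0.425% of all genes rose with TGF-beta and 0.142% fell. Of 25 mesenchymal genes 3 rose (TAGLN, PDLIM7 by 0.70 and TPM1 by 0.53) and 0 fell, and either pair alone called 0 of them. Of 27 matrix genes 3 rose (COL5A1, COL7A1 and COL4A2, by 0.63) and 0 fell, with 0 called from the siCTL pair alone and 3 from the siSFPQ pair alone.

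The furthest falls were P2RX6P (-2.19), BET3L (-1.07), SVEP1 (-0.91), SCIN (-0.80), WNT6 (-0.70), HPD (-0.67), PDK4 (-0.61), PZP (-0.61), KITLG (-0.61), FBXO30 (-0.60), PKDCC (-0.60) and MAPK4 (-0.60). SCIN, an actin-severing protein, was read at 66.5 and 38.9 FPKM without and with TGF-beta under siCTL, and at 40.0 and 21.8 under siSFPQ (adjusted p = 0.00656). WNT6, a Wnt ligand, was at 11.4 and 6.28 FPKM, then 7.01 and 4.19. Within each siRNA the treated library was the lower one, but the knockdown lowered both genes, so that the untreated siSFPQ library lay close to the treated siCTL library. KITLG, stem cell factor, changed by -0.63 to -0.19 in the other lines, and FBXO30, a ubiquitin ligase subunit, fell by more than in any of them (-0.15 to 0.13). Of all genes 10.8% lay below the other 5 lines with TGF-beta. PLK2, a polo-like kinase (-0.60), and IGF2BP2, an oncofetal RNA-binding protein (-0.46), also fell.

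For 3 of the genes that rose, the 250 bases before a start site are shown, since they are those of the 12 furthest rises whose window held CAGACA, which contains the CAGAC core that SMAD3 and SMAD4 are known to bind, or TGANTCA, the site of AP-1. Capitals mark matches on either strand. Windows were found for 8 of the 12, and all are from RefSeq, GRCh38.p14, given 5′ to 3′ on the minus strand, on which the 3 genes lie. COL7A1 is at chr3:48595330-48595579, MFAP2 at chr1:16981584-16981833 and C5orf46 at chr5:147906539-147906788. The bases just after the start were looked for in the GENCODE v29 transcripts of the same gene. They were found for C5orf46 but not for COL7A1 or MFAP2, so the start sites of the latter genes are uncertain.
COL7A1: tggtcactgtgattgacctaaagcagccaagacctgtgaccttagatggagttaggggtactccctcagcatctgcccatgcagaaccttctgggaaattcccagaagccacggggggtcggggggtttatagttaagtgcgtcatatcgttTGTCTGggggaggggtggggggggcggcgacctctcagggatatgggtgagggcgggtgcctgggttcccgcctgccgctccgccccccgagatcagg
MFAP2: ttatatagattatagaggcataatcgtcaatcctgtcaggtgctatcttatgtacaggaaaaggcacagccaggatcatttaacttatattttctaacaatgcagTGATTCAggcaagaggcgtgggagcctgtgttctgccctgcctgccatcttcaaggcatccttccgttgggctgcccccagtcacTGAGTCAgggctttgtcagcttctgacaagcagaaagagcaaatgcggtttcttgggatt
C5orf46: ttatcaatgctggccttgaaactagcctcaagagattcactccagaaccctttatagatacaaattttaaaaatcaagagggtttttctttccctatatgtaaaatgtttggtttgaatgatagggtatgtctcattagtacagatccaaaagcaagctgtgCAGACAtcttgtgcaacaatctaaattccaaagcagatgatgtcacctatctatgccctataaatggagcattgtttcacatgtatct
COL7A1 and C5orf46 each held 1 CAGACA match, and MFAP2 held 2 of TGANTCA. The MFAP2 matches were TGATTCA and TGAGTCA, and only the latter has C or G at N. Over all 57 windows of the genes that rose with TGF-beta (38 genes had at least 1), CAGACA was found in 15.8% and TGANTCA in 15.8%. Over the 12456 windows of tested genes the shares were 10.4% and 4.29%, and over all 35116 windows of the same length 13.6% and 6.57%. Windows of 1 gene can overlap, no test was made, and a match is not a bound site.

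Classic TGF-beta targets had changes above those of all genes, but none of them passed the test. Of the 30 measured 0 were called in limma, and their median change was 0.38, against -0.01 for all genes and 0.54 to 0.81 for the same targets in the other lines. TGFBI, a secreted matrix protein, was read at 90.8 FPKM under siCTL and 335 with TGF-beta, and at 46.1 under siSFPQ and 320 with TGF-beta. Both treated libraries lay above both untreated ones, yet the change of 2.32 had a standard error of 0.54 and an adjusted p of 0.161. PMEPA1 changed by 1.49 (adjusted p = 0.231) and SMAD7, the inhibitory SMAD, by 0.45 (adjusted p = 0.262). The spread in this fit is how far the 2 pairs of a line differ, estimated over all 6 lines. A TGF-beta response that differs between the siRNAs therefore raises it, and the median response of these targets was larger under siSFPQ in each line. How much this weighed on the p-values was not tested. In a fit on the 4 Hep3b libraries alone 3 of the 30 were called, against 0.667% of all genes higher. COL1A1, a fibrillar collagen, changed by 0.40 (adjusted p = 0.833) where the other lines ranged from 1.97 to 4.54 (unadjusted p of the difference 0.0307). ANGPTL4, a secreted lipase inhibitor, changed by 0.28 against 1.03 to 3.59. In all, 8 of 30 targets lay below every other line and 1 above, where 10.8% of all genes lay below and 19.7% above. When this difference from the other lines was tested in limma, 0 genes passed adjustment (0.0%) and 219 had an unadjusted p under 0.05.

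The response of the targets was larger under siSFPQ. Under siCTL the median change with TGF-beta was 0.13, with 24 of 30 above 0, and under siSFPQ it was 0.64, with 29 above 0. Over all genes the medians were 0.01 and -0.02. The number of genes at least 2-fold changed was 25 under siCTL and 74 under siSFPQ. Each of these is 1 library against 1, so the difference between them had no replicate within the line. The 5 other lines had medians of 0.33 to 0.68 under siCTL and 0.66 to 1.15 under siSFPQ, each higher under siSFPQ. Taken gene by gene, the response under siSFPQ minus that under siCTL had a median of 0.46 in Hep3b and of 0.16 to 0.51 elsewhere. PMEPA1 was read at 19.2 and 32.4 FPKM without and with TGF-beta under siCTL, and at 4.0 and 22.8 under siSFPQ. Its treated siSFPQ library was thus below its treated siCTL library, and the larger change began from a lower level. BMF, a pro-apoptotic gene of the BCL2 family, was at 3.38 and 4.07 FPKM, then 0.638 and 3.61, with the same order. The untreated siSFPQ library enters both the fall with knockdown and the larger response to TGF-beta of these genes, so the 2 are not independent.

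The genes with the widest difference of TGF-beta response between the siRNAs were taken from those outside the range of the other lines, so that position is given by the choice. CRYAB had 2.08 more under siSFPQ, RNF223 1.49, CD82 1.34, FOXC2 1.24, SAMD11 1.23, LRRC26 1.22, HERC3 1.17 and IGFBP3 1.14, and P2RX6P had 2.22 less (a difference of -2.22). LOC100652739 had 1.69 more, just above the 0.94 to 1.67 of the other lines. CD82, a tetraspanin known as a metastasis suppressor, was read at 28.4 and 41.8 FPKM without and with TGF-beta under siCTL, and at 8.07 and 32.4 under siSFPQ. IGFBP3, a carrier of insulin-like growth factors, was at 186 and 159 FPKM, then 63.4 and 120, so that it went down under siCTL and up under siSFPQ. In both genes the untreated siSFPQ library was the lowest of the 4. Against the other lines CD82 had an unadjusted p of 0.000194, and 0 of 10950 genes passed adjustment (0.0%), with 229 at an unadjusted p under 0.05. Of all genes 15.9% lay above and 11.9% below the other lines in this difference. IFIT2 went the other way, at 26.7 and 26.4 FPKM under siCTL and at 21.1 and 9.03 under siSFPQ, a difference of -1.12 between the responses.

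**Figure D5:**
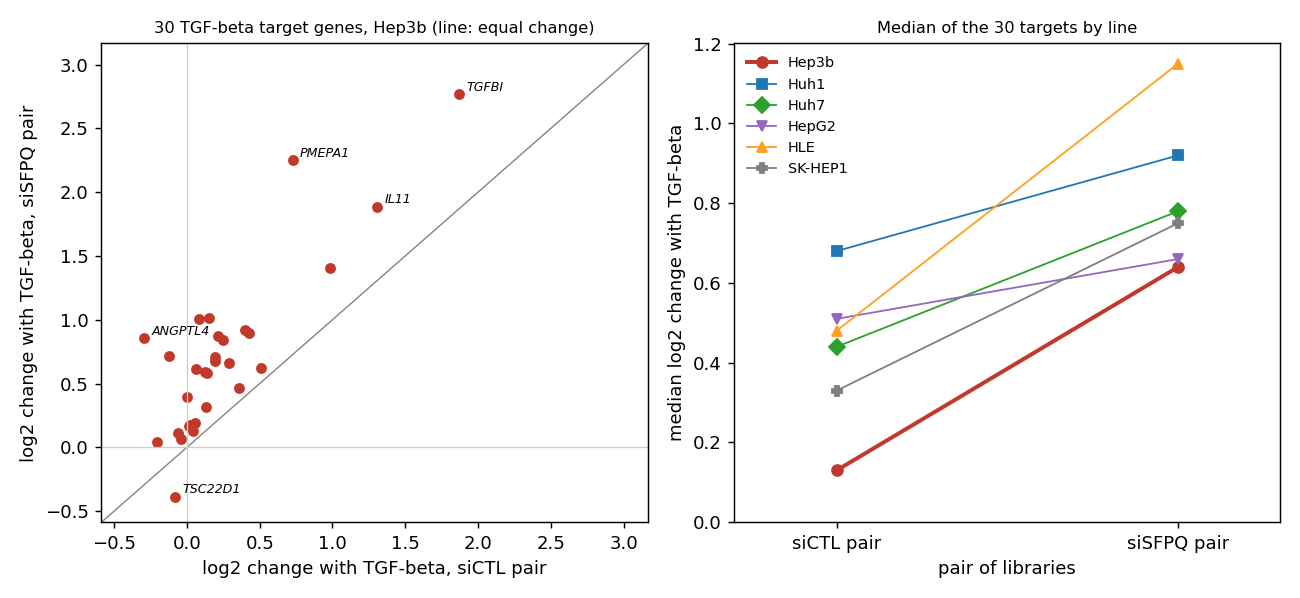
Response of the 30 measured TGF-beta targets, as the log2 change of FPKM + 1 with TGF-beta. Left, each gene in Hep3b under siCTL (x) and siSFPQ (y), with the line of equal change; right, the median in each line, which went from 0.13 to 0.64 in Hep3b and was higher under siSFPQ in all 6 lines.

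With TGF-beta, too, the proliferation lists of Hep3b lay above those of most other lines. The G2/M median was 0.07 and the G1/S median 0.06, with 0 called in either list, where the other lines ranged from -0.60 to -0.03 and from -0.49 to 0.02. In the siCTL pair the G2/M median was 0.15, with 34 of 37 above 0. In the siSFPQ pair it was -0.01, with 18 above 0, and HepG2 was higher at 0.03. The G1/S median was 0.08 and 0.05 in these pairs. By the mean of both pairs, 18 of the 37 G2/M genes lay above all other lines, and 25 of the 42 G1/S genes, against 19.7% of all genes. MKI67 was read at 48.6 and 46.0 FPKM without and with TGF-beta under siCTL, and at 51.0 and 55.2 under siSFPQ, with no order shared by the 2 pairs.

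The number of TGF-beta calls rests on few libraries and on the scale. From the siCTL pair alone, that is without either siSFPQ library, 7 genes were called, 4 of them higher (0.0334%), and from the siSFPQ pair alone 51, of which 40 were higher (0.334%). With a pseudocount of 0.1 there were 4 and with 5 there were 172, and without SK-HEP1 or HepG2 in the fit there were 23 and 27.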

How the data were processed

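Polyadenylated RNA of 24 libraries was measured as FPKM. The submitters' processing notes name hg19 as the build and list TopHat2 2.1.1 and Cufflinks 2.2.1. Neither they nor the labels give the annotation, filters or settings. As deposited by the authors, there is 1 table of FPKM for all libraries, and 2 further columns, which are empty, were not used. Its name speaks of raw counts, but its values are not whole numbers, and the depth is known only from the value worth 1 fragment in 1843 genes with 1 transcript.

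The table has 23284 rows, from which 1628 for short RNAs were removed before any test, since short length inflates FPKM (MIR4461 alone took 33.6% to 40.3% of the sum in the Hep3b libraries). Genes entered the tests when 2 or more of the 4 Hep3b libraries reached 1 FPKM. limma 3.58.1 (R 4.3.3, trend and robust) was fitted to log2(FPKM + 1) of all 24 libraries, with a term for each line and a separate siRNA and TGF-beta effect in each, which leaves 6 residual degrees of freedom, and p-values were adjusted over all genes tested (Benjamini-Hochberg). Hep3b was set against the other 5 lines in a second limma fit on 1 change per line, on genes that also had 1 FPKM in 10 of the other 20 libraries. The interaction within Hep3b had no replicate and got no test. The script was tested on simulated data.

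Named genes were the 12 furthest calls per direction with a mean log2 value of at least 2, the 4 smallest p-values of each of the 22 lists, the 10 widest interactions outside the other lines, the genes furthest outside the other lines, a fixed set of pathway and identity genes, and those named for their counts. MKI67 and other list members without a call were named after their values were seen. Some genes and 1 list are not reported here. The members and lists were chosen with earlier results of these data known. Gene spans and start sites come from GENCODE v29 and RefSeq on GRCh38, matched by symbol, with a span for 89.4% of tested genes. Alternatives were other pseudocounts, filters, scaling to a common median ratio, removal of the GC trend, and fits without single libraries or lines.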

Additional observations from a re-analysis of the deposited data

Results flagged for a closer look

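For 3 genes the libraries labelled Hep3b changed in the direction opposite to the other lines. CDKN1A fell by 0.61 in Hep3b and was higher with siSFPQ in both pairs of each other line, PDLIM7 fell by 0.40 where the other lines changed by 0.38 to 0.90, and BLM rose by 0.36 where they changed by -1.22 to -0.23. In these 3 genes every pair of Hep3b moved one way and every pair of the other lines the opposite way. That was so for 182 of the 11986 genes tested (1.52%) with the knockdown and for 99 (0.826%) with TGF-beta. The test of the difference gave unadjusted p = 0.00299 for CDKN1A and 0.0407 for BLM, and 0 genes passed adjustment.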

How the results depend on the processing

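The knockdown count of 3671 stayed within 1.5 times under every alternative except leaving out single Hep3b libraries, which gave 1572 to 1605 genes; leaving out 1 line gave 3304 to 3941. The TGF-beta count of 68 was 4 with a pseudocount of 0.1, 172 with a pseudocount of 5, 43 with a mean of at least 5 FPKM and 117 on the Hep3b libraries alone. Leaving out 1 library gave 7 (without either siSFPQ library) to 51, and leaving out 1 line gave 23 to 75, the lowest without SK-HEP1 (23) and HepG2 (27). Against the other lines, testing genes without a filter on low values gave 35 calls with the knockdown (6 above, 29 below) and 0 for TGF-beta and the interaction, and every other alternative gave 0. The cause of these shifts was not tested. Of 127 named genes called with the knockdown, 62 kept the call in every alternative run, and of 32 called with TGF-beta 0 did. None of these reversed. No paired analysis was possible because the replicate numbers only name the lines, and the line is a term of the main fit already. The analysis starts from FPKM, so the counting error of single genes is not known, and low genes such as ALB or ACTC1 rest on few fragments. The difference between the TGF-beta responses under siCTL and siSFPQ rests on 1 library per condition.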
